A study of Mus musculus with 4 samples.

Results

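The CXC chemokines are small secreted proteins, named for a pair of cysteines with a single residue between them, that guide leukocytes through G protein-coupled receptors. The data describe 8 of their genes, Cxcl1, Cxcl2, Cxcl3, Cxcl9, Cxcl10, Cxcl12, Cxcl14 and Cxcl16, chosen by symbol from a table of 35798 named genes. RNA was sequenced from Ly49H+ natural killer (NK) cells of wild-type (CD45.1) donors and of TNFR2 KO (CD45.2) donors, TNFR2 being a receptor for TNFα that Tnfrsf1b encodes and Ly49H an activating receptor for a protein of murine cytomegalovirus (MCMV). Donor cells of both genotypes were placed together in NSG mice, which lack T, B and NK cells of their own but keep myeloid cells, platelets, red cell precursors and stroma. All hosts were infected with MCMV, spleens were taken on day 3.5, and 2 libraries per genotype were made, each from a pool of 3 mice, with 1 wild-type and 1 TNFR2 KO library from the same pool. The CD45 allele and the sort gate changed with the genotype, so their effects cannot be told apart. The study's methods describe mice of young adult age, without an age for each group. The CD45 allele of the hosts was not given in the sources used here, and a host cell of the same allele as a donor could have entered that donor's gate, which was not tested.

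Libraries held 32713054 to 39543464 estimated counts. Levels are given as CPM, the rounded count as a share of the TMM-scaled library. Differences are log2-fold changes with wild-type as the base, from the quasi-likelihood test of edgeR, and p-values were adjusted by the Benjamini-Hochberg method over all 13822 genes tested. Genes were called where the adjusted p was under 0.05 and the log2-fold change exceeded 1 in either direction. The wild-type libraries held Tnfrsf1b, the targeted gene, at 265 and 269 CPM, against 55.1 and 58.6 CPM for TNFR2 KO. The labels pair the same-numbered libraries within a pool but do not say whether the pools came from different mice, so p-values measure the spread between these 4 libraries.

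Members of the family fall into groups by the cells they attract. CXCL1, CXCL2 and CXCL3 bind CXCR2 and draw neutrophils, and their genes are classical targets of NF-κB. CXCL9 and CXCL10 are induced by interferons and bind CXCR3, which activated T and NK cells carry. CXCL16 is made as a membrane-bound protein, can be shed by proteases, and binds CXCR6. CXCL12 and CXCL14 are best known from stromal and epithelial cells, and CXCL12 binds CXCR4.

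Promoter sequences from RefSeq (GRCm38.p6) were found for 7 of the 8 genes, Cxcl16 being the exception. Those of the neutrophil-attracting and the interferon-induced members are shown because both groups hold genes that fell in the TNFR2 KO libraries. Each runs 5′ to 3′ on the gene's strand and ends at the base before the annotated start. Capitals mark matches, on either strand, to the NF-κB motif written as GGGANNTTCC or GGGANTTCC and to the interferon-stimulated response element written as GAAANNGAAA. The first 3 lie on the plus strand at chr5:90891125-90891244, chr5:90903779-90903898 and chr5:90785981-90786100, and the last 2 on the minus strand at chr5:92328080-92328199 and chr5:92348890-92349139.
Cxcl1: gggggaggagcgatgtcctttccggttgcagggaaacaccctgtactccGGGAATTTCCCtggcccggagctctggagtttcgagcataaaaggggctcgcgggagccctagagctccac
Cxcl2: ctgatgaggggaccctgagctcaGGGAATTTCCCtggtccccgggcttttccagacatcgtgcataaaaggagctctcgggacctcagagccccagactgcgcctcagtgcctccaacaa
Cxcl3: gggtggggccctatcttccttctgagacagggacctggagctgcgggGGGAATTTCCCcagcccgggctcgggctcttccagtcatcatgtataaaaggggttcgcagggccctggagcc
Cxcl9: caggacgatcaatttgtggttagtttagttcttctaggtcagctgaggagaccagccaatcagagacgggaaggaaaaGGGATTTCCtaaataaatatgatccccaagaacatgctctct
Cxcl10: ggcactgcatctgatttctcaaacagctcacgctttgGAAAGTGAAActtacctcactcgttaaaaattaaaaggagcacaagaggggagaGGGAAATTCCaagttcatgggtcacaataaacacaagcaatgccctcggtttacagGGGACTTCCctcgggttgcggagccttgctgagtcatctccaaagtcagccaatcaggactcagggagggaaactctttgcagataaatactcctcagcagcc

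Over the 250 bases before the start, an NF-κB match stood in 5 of the 7 promoters and in 2.62% of the 32851 promoters of the same length in the table. In Cxcl1, Cxcl2 and Cxcl3 it was the same run of bases, from 71 to 61, 97 to 87 and 73 to 63 bases before the start. This run matched the motif on both strands, in overlapping stretches. Cxcl10 held 2 NF-κB matches, and Cxcl9 held 1 of the shorter form, from 42 to 34 bases before the start. The RefSeq starts used here can differ from the gene positions given below. The difference was largest for Cxcl2, whose sequence ends at 90903898 while the gene begins at 90903871. The interferon element matched in Cxcl10 and Cxcl14 and in 2.98% of all promoters. The interferon-γ-activated sequence, written as TTCNNNGAA, matched in Cxcl14 alone among the 7 and in 7.02% of all promoters. A match is a string of letters in the reference and not a site shown to be used, and the motifs were chosen after the promoters had been read.

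Of the 8 chemokine genes, 5 had enough counts to be tested (Cxcl2, Cxcl3, Cxcl9, Cxcl10 and Cxcl16). Of these 5, 4 were called, each of them lower in the TNFR2 KO libraries. Of all genes tested, 13.3% were called, 11.8% as lower and 1.56% as higher. The median log2-fold change of the 5 was -2.94, beside -0.003 for all genes tested. Summed over the 8 genes, expression reached 236 and 243 CPM per library in wild-type, against 23.4 and 24.5 CPM for TNFR2 KO. Cxcl9 and Cxcl10 made up 92.0% to 92.6% of that sum in wild-type and 87.7% to 87.9% in TNFR2 KO.

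**Figure D1:**
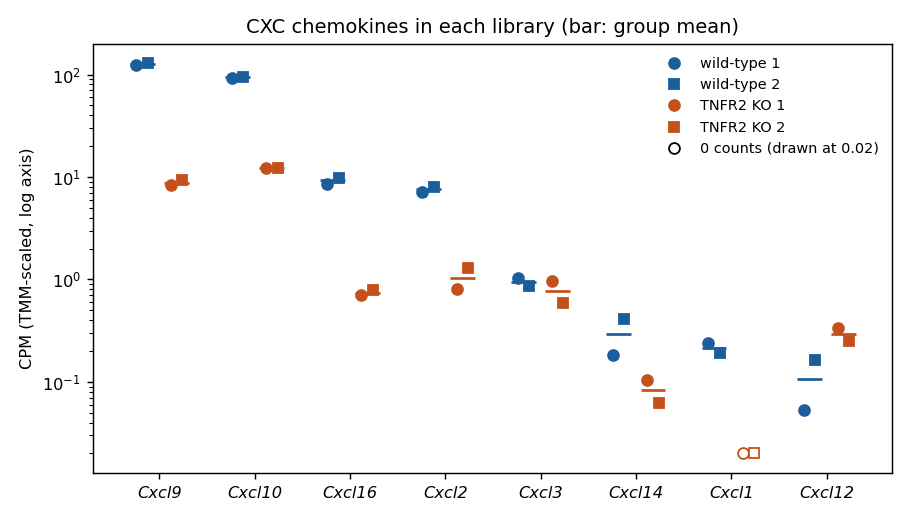
Expression of the 8 CXC chemokine genes in each library, in CPM on a log axis, with circles for replicate 1, squares for replicate 2 and a short bar at the mean of each group of 2. Cxcl9, Cxcl10, Cxcl16 and Cxcl2 lay far apart between genotypes, Cxcl3 overlapped, and the remaining 3 genes lay under 0.5 CPM, where open symbols drawn at 0.02 stand for the 0 counts of Cxcl1 in TNFR2 KO.

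Cxcl9 encodes a ligand of CXCR3 that interferon-γ induces in macrophages and other cells. In GRCm38 (mm10) the gene spans 92321347 to 92328079 of chromosome 5, on the minus strand, and its longest coding transcript has 4 exons. Its level per library was 125 and 128 CPM for wild-type, against 8.27 and 9.40 CPM for TNFR2 KO. Both TNFR2 KO libraries were thus far under both wild-type libraries, at 6.97% of the wild-type mean. The log2-fold change was -3.85 (SE 0.0567, adjusted p = 7.06e-14 in edgeR), the largest fall among the 5 genes tested.

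Cxcl10, the neighbouring gene, encodes a further ligand of CXCR3 that responds to type I interferon as well as interferon-γ. It lies on the same strand, from 92346638 to 92348889. The wild-type libraries had 92.9 and 95.3 CPM and the TNFR2 KO libraries had 12.3 and 12.1 CPM, with no overlap between the groups. The log2-fold change was -2.94 (SE 0.0510, adjusted p = 2.97e-13 in edgeR). Cxcl10 lies inside Art3 on the opposite strand and shares 4.47% of its 31-base stretches with it, but Art3 held only 4 to 9 counts per library.

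Within the libraries, the balance of both CXCR3 ligands differed between the genotypes. The ratio of Cxcl9 to Cxcl10 was 1.35 in wild-type replicate 1 and again in replicate 2, but 0.674 and 0.774 in TNFR2 KO. Every TNFR2 KO ratio lay under every wild-type ratio. With 2 libraries against 2, an exact permutation test cannot reach significance for such a ratio, and none was run.

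Cxcl16 encodes the transmembrane ligand of CXCR6. It spans 70453983 to 70459984 of chromosome 11, on the minus strand. Its values were 8.62 and 9.87 CPM in wild-type and 0.698 and 0.780 CPM in TNFR2 KO, the latter from 27 and 25 counts. The groups did not overlap, and the log2-fold change was -3.64 (standard error 0.184, adjusted p = 6.55e-09, edgeR's quasi-likelihood test). Of its 31-base stretches, 18.5% occur in Zmynd15 on the opposite strand, which makes its count less certain, since the strand setting of the counting was not stated. Zmynd15 itself stood at 0.791 and 0.976 CPM in wild-type and at 0.0776 and 0 CPM in TNFR2 KO.

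Cxcl2 encodes a neutrophil attractant, also known as MIP-2, and spans 90903871 to 90905938 of chromosome 5, on the plus strand. The wild-type libraries had 7.2 and 8.0 CPM, the TNFR2 KO libraries 0.801 and 1.28 CPM. The TNFR2 KO libraries differed from each other by a larger factor than for the other called members, but both stood far under wild-type. The log2-fold change was -2.88 (standard error 0.211, adjusted p = 2.15e-07, edgeR's quasi-likelihood test).

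Cxcl3, from 90786103 to 90789600 in the same cluster, encodes a close relative that also acts on CXCR2. Its values were 1.03 and 0.868 CPM in wild-type and 0.957 and 0.593 CPM in TNFR2 KO. The groups overlapped, and the log2-fold change was -0.28 (standard error 0.376, adjusted p = 0.577 in edgeR's test), which does not show that the genotypes were alike at this depth of 19 to 39 counts. Without TNFR2 KO replicate 2 the change was 0.0169. Cxcl2 and Cxcl3 thus stood apart within the libraries: the ratio of Cxcl2 to Cxcl3 was 7.0 and 9.22 in wild-type, and 0.838 and 2.16 in TNFR2 KO. Cxcl2 shares 7.59% of its 31-base stretches with Cxcl3, so a small part of their reads could be split between them.

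Cxcl1, which encodes a further ligand of CXCR2, lies between them from 90891241 to 90893115 and was near the limit of detection. The wild-type libraries had 9 and 7 counts, and both TNFR2 KO libraries had 0. With 3 counts per library as the limit that a count of 0 allows, wild-type was at least 2.5-fold higher. Cxcl1 did not pass the filter on low counts, and without that filter its adjusted p in edgeR was 0.00973, while DESeq2 gave none.

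Cxcl14 and Cxcl12 were as scarce. Cxcl14, on chromosome 13 from 56288643 to 56296551, had 7 and 15 counts in wild-type and 4 and 2 in TNFR2 KO. Its rate in TNFR2 KO was 0.288 of that in wild-type (95% exact interval 0.0957 to 0.734), and without the filter its adjusted p in edgeR was 0.144. Cxcl12, on chromosome 6 from 117168535 to 117181367, was the only one of the 8 with a higher mean in TNFR2 KO. It had 2 and 6 counts in wild-type against 13 and 8 in TNFR2 KO, a rate ratio of 2.78 (95% exact interval 1.18 to 7.25). Without the filter its adjusted p in edgeR was 0.234. These intervals cover counting error only and leave out the spread between libraries. Among the 5 genes tested, all but Cxcl3 had groups that did not overlap, as did 74.0% of all genes tested. Cxcl1, Cxcl14 and Cxcl12, which were not tested and lie outside that share, did not overlap either.

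To compare levels between genes, CPM was divided by the length of the longest coding transcript in GENCODE M21. On this scale of CPM per kilobase Cxcl10 was the most abundant in every library, at 68.7 and 70.4 in wild-type and 9.08 and 8.97 in TNFR2 KO. Cxcl9 followed with 43.4 and 44.4 in wild-type and 2.86 and 3.25 in TNFR2 KO. In wild-type the order went on with Cxcl2 at 3.87 and 4.30, Cxcl16 at 3.19 and 3.66, and Cxcl3 at 1.01 and 0.854 CPM per kilobase. Neighbours in this order did not overlap down to Cxcl1, which overlapped with Cxcl14. In TNFR2 KO, Cxcl3 ranked next in the mean, at 0.941 and 0.584, but overlapped with Cxcl2, at 0.431 and 0.688. The order of Cxcl2 and Cxcl16 rests on the transcript lengths used, 1859 and 2699 bases.

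The 7 further CXC ligand genes had at most 2.14 CPM in any library. Of these, 4 were tested and 3 were called, each of them lower, beside 11.8% called lower among all genes tested. Cxcl11 and Pf4, the latter with 7 and 8 counts in TNFR2 KO, passed the filter on low counts through wild-type alone. Passing in this way favours a lower call. Cxcl11, which encodes another CXCR3 ligand and is annotated as a polymorphic pseudogene in the reference strain, had 15 and 15 counts in wild-type against 2 and 0 in TNFR2 KO. Its log2-fold change was -3.68 (standard error 0.956) and ranged from -6.85 to -2.87 with each library left out, the lower end coming from a fit in which the remaining TNFR2 KO library had 0 counts. Of its 31-base stretches, 42.2% occur in other genes, mostly the pseudogene Gm2673. Pf4 and Ppbp, both products of platelets and megakaryocytes, fell by 3.13 and 2.0 on the log2 scale. Cxcl5, another neutrophil attractant, had a log2-fold change of 0.72 that was not called (standard error 0.491, adjusted p = 0.250 in edgeR's test) and became -0.15 when scaled on NK lineage genes. Cxcl13, Cxcl15 and Cxcl17 had at most 2 counts in any library.

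**Figure D2:**
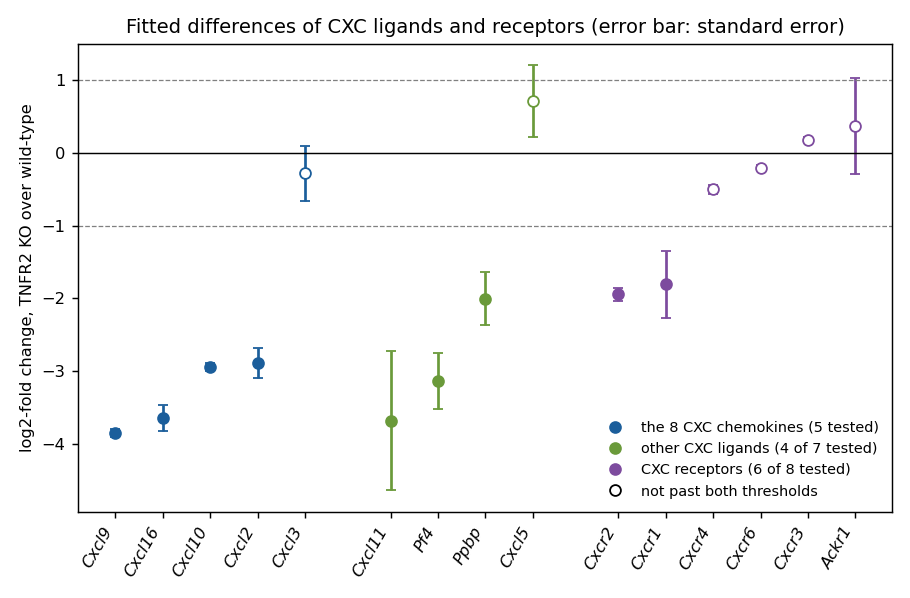
Fitted log2-fold change in TNFR2 KO relative to wild-type, with its standard error, for the tested genes among the 8 CXC chemokines, the other CXC ligands and the CXC receptors. Filled points passed both thresholds and dashed lines mark a log2-fold change of 1 in either direction. The called ligands lie between -3.85 and -2.0, and the called receptors Cxcr2 and Cxcr1 lie at -1.94 and -1.81. The receptors Cxcr3, Cxcr4 and Cxcr6, which were not called, lie between -0.50 and 0.18.

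Most of these genes sit in 2 clusters on chromosome 5. In the cluster from Cxcl5 to Cxcl2, which spans 147 kb, called and uncalled genes were interspersed: Ppbp, Pf4 and Cxcl2 were called lower, while Cxcl5 and Cxcl3 were not called. Mthfd2l, the next gene beyond Cxcl2, had an adjusted p of 0.866 in edgeR at a log2-fold change of 0.07. The cluster of Cxcl9, Cxcl10 and Cxcl11 spans 44.1 kb, and all 3 of its genes were called lower. On one side Sdad1 and Naaa had log2-fold changes of -0.51 and -1.85, and on the other Nup54 and Scarb2 had -0.04 and -0.005. Naaa, a lysosomal amidase, was called lower and the other 3 were not, and Ppef2 beyond Naaa had a log2-fold change of -1.56 that missed the threshold (adjusted p = 0.0553, edgeR). The neighbours were taken by position within 100 kb, after the values of the chemokines were known.

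**Figure D3:**
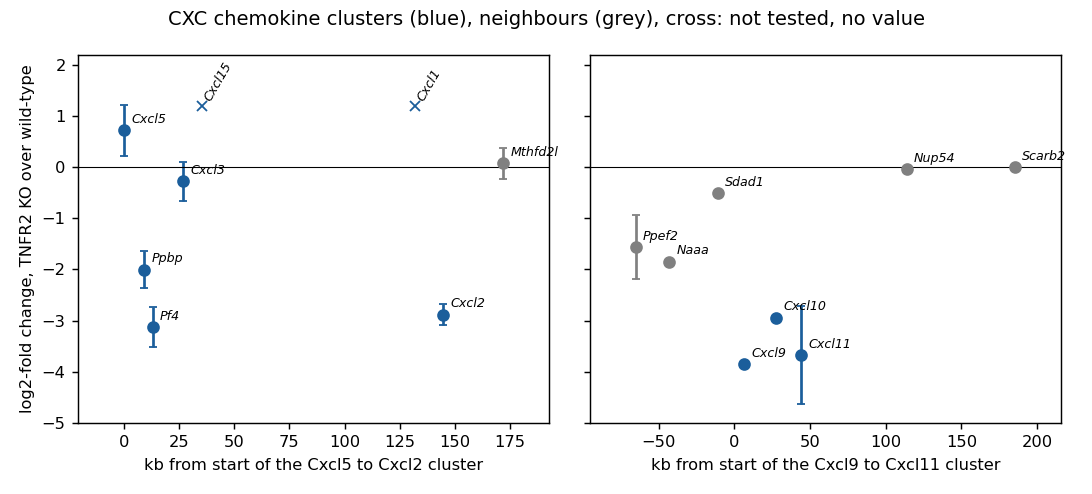
Log2-fold change in TNFR2 KO relative to wild-type, with its standard error, by distance of each gene's start from the edge of the Cxcl5 to Cxcl2 cluster (left) and of the Cxcl9 to Cxcl11 cluster (right). Chemokine genes are blue, neighbours within 100 kb are grey, and crosses mark chemokine genes that were not tested and have no value. In the right panel the 3 chemokines lie between -3.85 and -2.94, while Nup54 and Scarb2 lie at about 0.

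The receptors showed a split of another kind. Of 8 receptor genes 6 were tested, and 2 were called lower. Cxcr2, the receptor of CXCL1, CXCL2 and CXCL3 on neutrophils, went from 24.3 and 24.2 CPM in wild-type to 6.67 and 5.87 CPM in TNFR2 KO and fell by 1.94 on the log2 scale (standard error 0.0910, adjusted p = 3.08e-09 in edgeR's test). Cxcr1 fell by 1.81 from 1.19 and 0.976 CPM, but lost its call without wild-type replicate 1. The receptors that NK cells carry were more abundant, and none was called with TMM scaling. Cxcr3 stood at 87.1 and 86.9 CPM in wild-type and at 96.8 and 101 CPM in TNFR2 KO. The difference of 0.18 on the log2 scale (SE 0.0363, adjusted p = 0.00118, edgeR) was larger than the spread between duplicates, stayed short of the fold threshold and became -0.69 when scaled on NK lineage genes. Cxcr6 measured 113 and 112 CPM in wild-type and 96.0 and 99.7 CPM in TNFR2 KO, a difference of -0.20 on the log2 scale. Cxcr4, the receptor of CXCL12, went from 28.9 and 29.6 CPM to 20.1 and 21.3 CPM, a log2-fold change of -0.50. When scaled on NK lineage genes, Cxcr6 and Cxcr4 were called lower, at -1.07 and -1.37. Cxcr5, Ackr1 and Ackr3 stayed under 0.5 CPM in every library.

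Genes that lead to the induction of Cxcl9 and Cxcl10 by interferon-γ mostly stayed within 1 log2 unit, and 1 of 8 was called. Ifng itself, which NK cells make, measured 187 and 188 CPM in wild-type and 191 and 189 CPM in TNFR2 KO, with a log2-fold change of 0.02 (adjusted p = 0.601, edgeR) that became -0.85 when scaled on NK lineage genes and also turned below 0 when scaled on library size alone. Ifngr2, the signalling chain of its receptor, was the gene called. It went from 25.1 and 24.1 CPM to 3.59 and 3.65 CPM and fell by 2.76 on the log2 scale. Ifngr1, the binding chain, had 336 and 340 CPM in wild-type and 494 and 504 CPM in TNFR2 KO, a difference of 0.56 on the log2 scale (-0.31 when scaled on NK lineage genes). Irf1, a transcription factor that carries the signal to the promoters, had a log2-fold change of -0.30, and Irf8 one of 0.60 (-0.27 with that scaling).

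On the NF-κB side, 3 of 8 genes were called, all of them lower and all of them secreted cytokines. Tnf went from 18 and 18.7 CPM in wild-type to 2.71 and 3.56 CPM in TNFR2 KO and fell by 2.55 on the log2 scale (standard error 0.130). Il1b fell by 2.40 from 35.0 and 37.6 CPM, and Il1a fell by 2.90. The NF-κB subunit genes Nfkb1 and Rela had log2-fold changes of 0.001 and 0.18, which turned to -0.87 and -0.69 with the same scaling. The inhibitor gene Nfkbia, the gene Nfkbiz and the mRNA decay factor Zfp36 lay between -0.32 and -0.24. Of 6 genes for proteases known to cut CXC chemokines, Mmp8 and Mmp9 were called lower and fell by 1.72 and 1.09. Adam10 and Adam17, which can shed CXCL16, had log2-fold changes of 0.08 and -0.27, and Dpp4 and Mmp12 had -0.28 and -0.36. Scaled on NK lineage genes, Adam10 stood at -0.79 and was not called. Adam17, Dpp4 and Mmp12 were then called lower, at -1.14, -1.15 and -1.23.

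Of 20 CC, XC and CX3C ligand genes 14 were tested, of which 9 were called lower and 1 higher. Summed over the 20, expression was 1603 and 1641 CPM in wild-type and 3335 and 3224 CPM in TNFR2 KO. The called higher gene was Ccl5, which cytotoxic lymphocytes express strongly, at 1150 and 1178 CPM in wild-type and 2884 and 2764 CPM in TNFR2 KO, higher by 1.28 on the log2 scale (0.41 when scaled on NK lineage genes). Ccl4 and Ccl3, also products of activated NK cells, had log2-fold changes of 0.88 and 0.64 short of the fold threshold, which became 0.009 and -0.23 with that scaling. These 3 had the highest means over the 4 libraries. In the wild-type libraries alone Ccl6, a chemokine of myeloid cells, stood as high as Ccl4, at 119 and 116 CPM, and it was called lower with 9.38 and 8.58 CPM in TNFR2 KO (log2-fold change -3.70).

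Markers of several other cell types were also called lower, though with TMM scaling none of the tested T or B cell markers was. Of 20 macrophage or monocyte markers 18 were tested and 17 were called lower, with a median log2-fold change of -2.98. Their summed level was 2254 and 2238 CPM in wild-type and 951 and 927 CPM in TNFR2 KO, of which Ccr2, the 1 tested marker not called lower, took most in TNFR2 KO. Without Ccr2 the sums were 1851 and 1854 CPM against 265 and 257 CPM. Defining markers such as Csf1r, Adgre1 and C1qa were present in TNFR2 KO at means of 27.0, 9.26 and 10.6 CPM, and of the list only Clec4f was at 0 in every library. The part of these markers in the fall of the chemokines was not tested, and in bulk RNA fewer cells of a type and less RNA per cell cannot be told apart.

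Set against the macrophage or monocyte sum without Ccr2, the 4 called members differed. Cxcl10 amounted to 50.2 and 51.4 CPM per 1000 CPM of these markers in wild-type, and to 46.4 and 47.2 in TNFR2 KO, lower with no overlap. Cxcl2 amounted to 3.89 and 4.32 in wild-type and to 3.03 and 4.97 in TNFR2 KO, so that its groups overlapped. Cxcl9 went from 67.7 and 69.2 to 31.2 and 36.5, and Cxcl16 from 4.66 and 5.32 to 2.64 and 3.03, with no overlap for either. Ccr2 was left out after its values had been seen, and with it in the sum each of the 4 ratios was lower in both TNFR2 KO libraries, Cxcl10 going from 41.2 and 42.6 to 12.9 and 13.1. Lyz2 was the largest part of the sum without Ccr2, at 771 and 778 CPM in wild-type and 114 and 110 CPM in TNFR2 KO. Single markers called lower ran from -3.67 (Mertk) to -1.65 (Cd68) on the log2 scale, so the ratios depend on the markers summed.

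Markers of further cell types were also tested. All 14 neutrophil or granulocyte precursor markers were called lower, with sums of 1011 and 1027 CPM in wild-type and 99.6 and 96.3 CPM in TNFR2 KO. Lower calls numbered 7 of 8 mast cell or basophil markers (1 higher), 5 of 10 dendritic cell or class II markers (1 higher), 5 of 6 tested megakaryocyte or platelet markers, 8 of 8 erythroid markers and 4 of 7 tested stromal or endothelial markers. The last count was 2 without wild-type replicate 1, without wild-type replicate 2 or without TNFR2 KO replicate 2, and 2 of 13 tested in DESeq2. The stromal or endothelial list, which holds the usual sources of CXCL12, had Pdpn at 0 in every library, and Pdgfra, Lepr, Dcn and Lum were too scarce to test. The 7 T cell markers lay between -0.56 and 0.10 on the log2 scale, and the 1 tested B cell marker of 6 lay at -0.65, none of them past the fold threshold. NK cell markers went the other way: all 16 were tested and 4 were called higher, a count that scaling on NK lineage genes brings to none by construction, since 13 of them are what it scales on, and their sum was 17267 and 17190 CPM in wild-type and 31519 and 31194 CPM in TNFR2 KO. Markers of the labelled NK cells were thus present in all 4 libraries, next to those of further cell types. The part of these lists in the chemokine values was not tested.

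**Figure D4:**
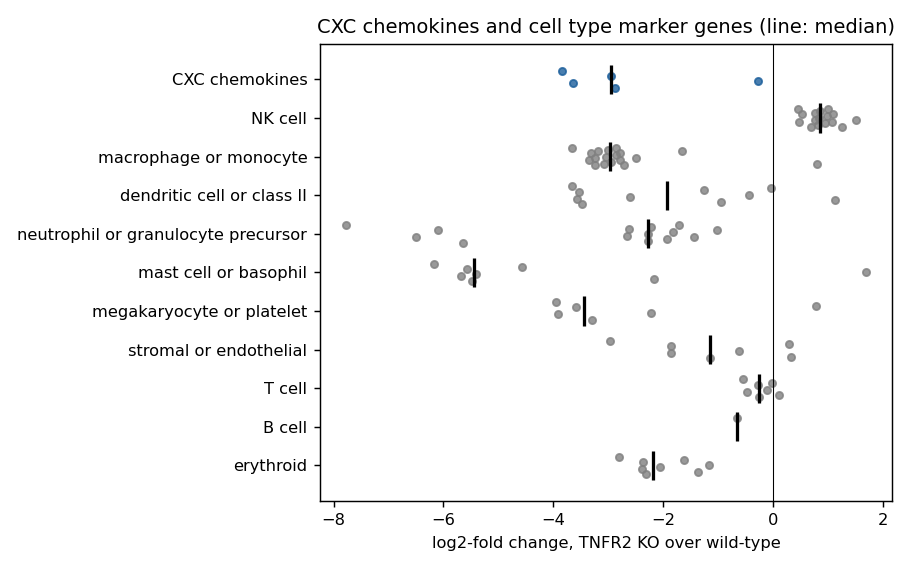
Log2-fold change in TNFR2 KO relative to wild-type for the tested CXC chemokines (blue) and for the tested genes of each cell type marker list (grey), with a black line at each list's median. The median of the chemokines was -2.94, over genes from -3.85 to -0.28. Medians were -5.45 for mast cell or basophil, -3.45 for megakaryocyte or platelet and -2.98 for macrophage or monocyte markers. They were -2.29 for neutrophil or granulocyte precursor, -2.19 for erythroid, -1.94 for dendritic cell or class II and -1.16 for stromal or endothelial markers. NK cell markers lie above 0 with a median of 0.84 (-0.03 when scaled on NK lineage genes, which centres these genes by construction).

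Among 8763 tested genes whose mean reached 10 CPM, those whose pattern was nearest to that of a member were taken as the smallest distance between centred log2 CPM values over the 4 libraries, a description that rests on 4 points. Nearest to Cxcl9 were Anpep, an aminopeptidase, Chil1, a chitinase-like protein, and Cfb, complement factor B, at distances of 0.0473, 0.0482 and 0.162. Chil1, for example, measured 131 and 136 CPM in wild-type and 8.38 and 9.77 CPM in TNFR2 KO. Nearest to Cxcl10 were the pseudogene Rpl3-ps1, Slc11a1, a metal transporter of phagocyte vesicles, and Gatm, an enzyme of creatine synthesis, at distances of 0.0373, 0.0490 and 0.0546. Cfb and Rpl3-ps1 share 75.5% and 97.4% of their 31-base stretches with other genes, so their counts are uncertain.

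The calls of Cxcl9, Cxcl10, Cxcl16 and Cxcl2 did not turn on the scaling. Scaling on 13 NK lineage genes in place of TMM moved the median over all genes to -0.87 on the log2 scale and the calls over all genes from 1627 lower and 215 higher, or 88.3% lower, to 4667 and 26, or 99.4% lower. With that scaling the log2-fold changes of Cxcl9, Cxcl16, Cxcl10 and Cxcl2 were -4.72, -4.51, -3.81 and -3.75, and Cxcl3 was called lower at -1.14 (adjusted p = 0.0127, edgeR), close to the median of all genes. With each library left out in turn, Cxcl9 stayed between -3.93 and -3.74, Cxcl10 between -2.95 and -2.92, Cxcl16 between -3.73 and -3.53, and Cxcl2 between -3.23 and -2.56.

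**Figure D5:**
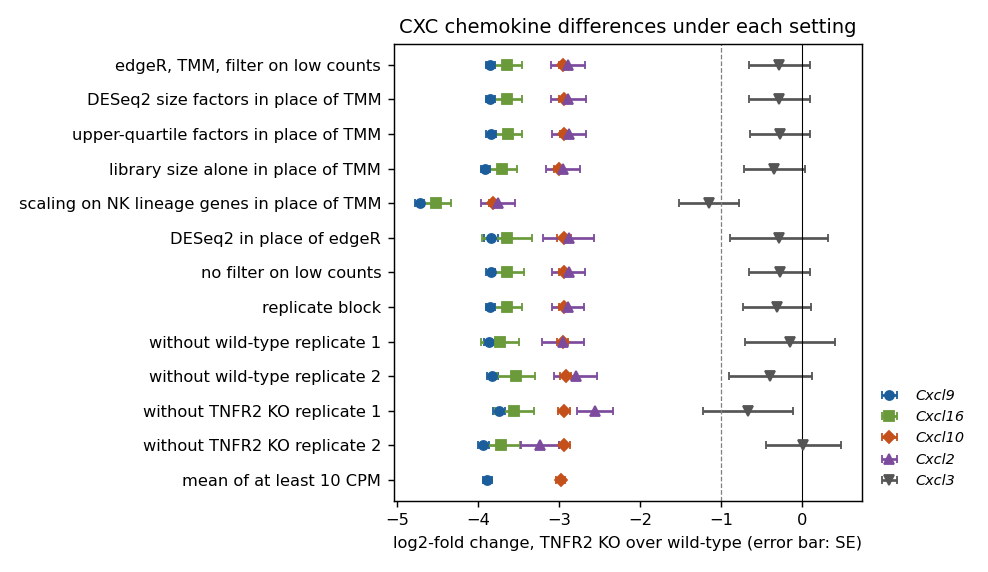
Log2-fold change in TNFR2 KO relative to wild-type, with its standard error, of the 5 tested CXC chemokines under each setting. The dashed line marks the fold threshold of -1. Cxcl9, Cxcl16, Cxcl10 and Cxcl2 lie between -4.72 and -2.56 in every setting in which they were tested, whereas Cxcl3 lies between -1.14 and 0.02, and Cxcl16, Cxcl2 and Cxcl3 have no value where a mean of 10 CPM was required.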

How the data were processed

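Libraries were strand-specific and made from poly-A RNA, and the authors trimmed the paired reads with Trimmomatic (1.4) and assigned them to mm10 transcripts with kallisto (0.46.1), versions as the submitters' processing notes give them, then summarised them by gene in Tximport. The deposited values are these estimated counts (expected counts), which were not scaled between libraries. The transcript annotation was not given in the sources used here. A row without a gene name, with 0.0559% to 0.0728% of the counts, was left out. Counts were rounded and fitted in edgeR 4.0.16 (R 4.3.3) with filterByExpr, TMM factors and genotype as the only term, by the quasi-likelihood test. The alternatives were other scaling, DESeq2 1.42.0, other filters, the replicate block and each library left out. The steps were first tested on simulated data.

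Same-numbered libraries came from the same pooled spleens per the labels, so the numbers pair the samples, and across genes their deviations from the group means correlated at 0.0487. Duplicates differed by more than sampling noise, their mean chi-square over genes being 3.36 in wild-type and 3.58 in TNFR2 KO. The biological coefficient of variation was 3.33%, so that small differences can be called.

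The members, lists and motifs were chosen with earlier results of these data known. Genes named are the members, the further CXC ligands, the receptors, proteases and inducers, the 3 CC, XC and CX3C ligands of the highest mean over the 4 libraries, Tnfrsf1b, and the 3 genes nearest in pattern to each of the 2 most abundant members. Ccl6, neighbours, genes of overlapping sequence and single markers were named in addition, after their values were seen. GENCODE M21 on GRCm38 gave positions, lengths and the share of 31-base stretches that occur in other genes, in place of the authors' annotation. Intervals of rate ratios are exact conditional 95% intervals (SciPy 1.17.1), and plots were drawn with matplotlib 3.10.9.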

Additional observations from a re-analysis of the deposited data

How the results depend on the processing

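The number of members called was 4 under every scaling but that on NK lineage genes (5), with DESeq2 and whichever library was left out (4 to 4), and 5 without a filter, where Cxcl1 was added. Requiring a mean of 10 CPM left 2, since only Cxcl9 and Cxcl10 could then be tested. Over all genes the number called was 1842, 480 with that filter, 4693 with scaling on NK lineage genes, and between 1650 and 1867 with each library left out. Cxcl3 was the member that moved: its log2-fold change was -1.14 with scaling on NK lineage genes, where it was called, and between -0.66 and 0.0169 with each library left out. The change of sign came without TNFR2 KO replicate 2, and its cause was not tested. A fit without 1 library leaves a lone sample, which is assumed to vary like the other group. The replicate block, which pairs libraries of the same pool, called 4 members and 1830 genes and changed no call among the members. Scaling on NK lineage genes raised lower calls to 4 among the CXC receptors, 6 among the NF-κB inducers, 4 among the interferon-γ genes and 5 among the proteases. Depth limits Cxcl1, Cxcl12 and Cxcl14, each at 15 or fewer counts per library.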
